A study of Mus musculus with 11 samples.

Results

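Cthrc1, Comp, Chad, Cilp, Cilp2, Tnfrsf11b and C1qtnf3 encode secreted proteins of activated fibroblasts and of cartilage-like matrix, and they are 7 of the 46517 gene identifiers in the count table of a mouse heart study. They were chosen by name, as secreted genes of this kind that had levels near 0 in sham-operated hearts, and the rule set no numeric limit. Messenger RNA from ventricular myocardium was sequenced in 11 libraries. The 3 KO TAC libraries came from Tnnt2-Cre Lmnb2 flox/flox mice, labelled Lmnb2 KO, that underwent transverse aortic constriction (TAC), a surgical narrowing of the aorta that loads the left ventricle with pressure. The 3 WT TAC libraries came from Tnnt2-Cre control mice with the same surgery, and the 3 KO sham and 2 WT sham libraries from the same genotypes after sham surgery. The genotype label of WT sham 2 reads WT, while that of the other controls reads Lmnb2 WT, and both were taken as the control. Per the protocol in the labels all groups carry Tnnt2-Cre, which is expressed in cardiomyocytes, so the deletion is aimed at cardiomyocytes and not at the fibroblasts that make most cardiac matrix. The mice were 10 to 12 weeks old at surgery, and how long after surgery the hearts were taken is not stated in the sources. The labels do not say that each library is a separate mouse, so p-values measure the spread between these libraries, which may be technical.

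After injury, resting cardiac fibroblasts are activated, secrete collagens and matricellular proteins, and in persistent scars can turn on genes otherwise known from cartilage, bone and tendon. Cilp, cartilage intermediate layer protein, is a large matrix protein that binds TGF-beta1 and dampens its signal. Cilp2 is its paralog. Comp, cartilage oligomeric matrix protein, is a member of the thrombospondin family with a pentameric form and binds fibrillar collagens. Chad, chondroadherin, is a leucine-rich repeat protein of cartilage that binds collagen and integrins. Cthrc1, collagen triple helix repeat containing 1, is a secreted glycoprotein of activated fibroblasts in injured arteries and hearts. C1qtnf3, also called CTRP3 or cartducin, is an adiponectin relative with a collagen-like stalk and a C1q-like head. Tnfrsf11b, osteoprotegerin, is a soluble decoy receptor that captures RANK ligand (Tnfsf11) and TRAIL (Tnfsf10).

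In GRCm38 coordinates with the GENCODE M21 annotation, 3 of the genes lie on chromosome 15, Cthrc1 at chr15:39076932-39087121 on the plus strand, Tnfrsf11b at chr15:54250619-54278484 on the minus strand and C1qtnf3 at chr15:10952332-10980150 on the plus strand. Comp at chr8:70373558-70382066 (plus) and Cilp2 at chr8:69880369-69887687 (minus) share chromosome 8. Cilp lies at chr9:65265180-65280605 (plus) and Chad at chr11:94565047-94569127 (plus). Exons of these 7 genes overlapped the exons of 0 other annotated genes. The longest run of bases shared by the exons of Cilp and Cilp2 was 14, so reads of the pair are distinguishable over nearly all of their length.

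RefSeq promoter entries (GRCm38.p6) were found for 4 of the 7 genes, Cilp, C1qtnf3, Chad and Cilp2. The 250 bases before the RefSeq start are shown for Cilp and C1qtnf3, which had the highest levels per kilobase after TAC, and for Cilp2, the paralog of Cilp that stayed near 0. For Cilp2 the RefSeq start lies downstream of the GENCODE start at chr8:69887687. Its window therefore lies inside the GENCODE gene and not upstream of it. Capitals mark matches to the motifs searched on both strands: AP-1 (TGANTCA), the SMAD box (CAGACA) and its repeat (GTCTAGAC), TEAD (GGAATG), SOX (ACAAT), the TATA box (TATAAA) and the CArG box of serum response factor.
Cilp promoter, chr9:65264930-65265179, plus strand: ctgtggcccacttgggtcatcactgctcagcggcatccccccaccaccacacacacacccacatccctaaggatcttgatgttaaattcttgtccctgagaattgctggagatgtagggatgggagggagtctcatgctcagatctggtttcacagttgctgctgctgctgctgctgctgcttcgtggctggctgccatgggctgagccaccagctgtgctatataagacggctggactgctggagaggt
C1qtnf3 promoter, chr15:10952082-10952331, plus strand: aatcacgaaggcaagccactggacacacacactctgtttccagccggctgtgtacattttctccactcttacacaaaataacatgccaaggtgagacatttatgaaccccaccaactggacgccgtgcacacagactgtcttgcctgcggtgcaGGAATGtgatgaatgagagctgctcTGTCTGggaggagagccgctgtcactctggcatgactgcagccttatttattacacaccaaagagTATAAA
Cilp2 promoter, chr8:69887393-69887642, minus strand: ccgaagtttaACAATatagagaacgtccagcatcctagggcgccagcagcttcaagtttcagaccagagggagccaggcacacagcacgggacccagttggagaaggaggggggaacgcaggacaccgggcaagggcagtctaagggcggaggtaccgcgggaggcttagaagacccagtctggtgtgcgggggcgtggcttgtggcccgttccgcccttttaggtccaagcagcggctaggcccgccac

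Of these motifs the C1qtnf3 window held a SMAD box, a TEAD motif and a TATA box. The Cilp2 window held a SOX motif and the Chad window a TATA box. The TATA match began at -6 from the RefSeq start in C1qtnf3, directly before that start, and at -28 in Chad. The Cilp window held 0 matches to the searched letters. Variants of the TATA box were not searched, so the stretch tatataag near the end of the Cilp window is not marked. Among the 32851 RefSeq promoters of 300 bases (50 bases past the start included), 21% held a SMAD box, 14.7% a TEAD motif, 31% a SOX motif and 13.6% a TATA box. AP-1 was present in 7.81%, the SMAD repeat in 0.213% and the CArG box in 1.63%. These matches describe letters in the windows and are no measure of factor binding. The windows of Cilp and C1qtnf3, both high after TAC, had no searched motif in common.

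Library totals ran from 14770383 to 17333227 counts, at which 3 counts in a single library correspond to 0.143 to 0.278 CPM (counts scaled to library size, with TMM factors). The libraries labelled KO had 3.24 to 9.72 CPM of Lmnb2 after TAC, against 2.16 to 6.70 CPM in WT TAC, and 0.649 to 2.43 CPM after sham, against 3.86 to 4.44 CPM in WT sham. Lmnb2 was therefore not lower in the 3 libraries labelled KO TAC than in WT TAC (log2 difference 0.57 ± 0.55 (SE), edgeR adjusted p = 0.792), and genotype below means the label. KO TAC 1 and WT TAC 3 stood apart from the other TAC libraries, with 35.9% and 30.5% of counts on mitochondrial genes and 0.838% and 1.29% on ribosomal protein genes. Mitochondrial genes took 13.2% to 35.9% of counts after TAC and 32.8% to 49.4% after sham. Ribosomal protein genes took 0.838% to 6.62% after TAC and 0.620% to 1.67% after sham. KO TAC 1 and WT TAC 3 thus lay within the sham range of the ribosomal protein share. Title numbers of TAC and sham libraries fell in separate ranges, so a batch that followed them and the surgery cannot be told apart.

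Of the 7 genes, 5 were abundant enough to follow in TAC hearts, namely Cilp, C1qtnf3, Cthrc1, Comp and Tnfrsf11b, and 2 of them, Chad and Cilp2, stayed at the edge of detection in both surgeries. Per kilobase of exon, Cilp led with 24.9 ± 11.7 CPM per kb in KO TAC and 43.0 ± 3.04 in WT TAC (SD, n = 3 each). C1qtnf3 followed with 9.37 ± 8.501 CPM per kb in KO TAC and 8.55 ± 5.91 in WT TAC. Cthrc1 had 2.58 ± 2.43 and Comp 1.91 ± 1.07 CPM per kb in KO TAC, against 5.72 ± 3.63 and 2.98 ± 2.85 in WT TAC. Tnfrsf11b was lowest of the 5, at 0.570 ± 0.263 CPM per kb in KO TAC and 0.787 ± 0.751 in WT TAC. The step below Cilp exceeded 1 SD of each neighbour in both genotypes, and Cilp was the highest of the genes per kilobase in all 6 TAC libraries. The ranges over libraries of C1qtnf3, Cthrc1 and Comp overlapped in both genotypes, as did those of Comp and Tnfrsf11b. In sham hearts Cilp (0.405 CPM per kb in KO sham, 0.489 in WT sham) and Comp (0.205 and 0.185 in the same groups) were the 2 genes with a count in all 5 libraries.

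**Figure D1:**
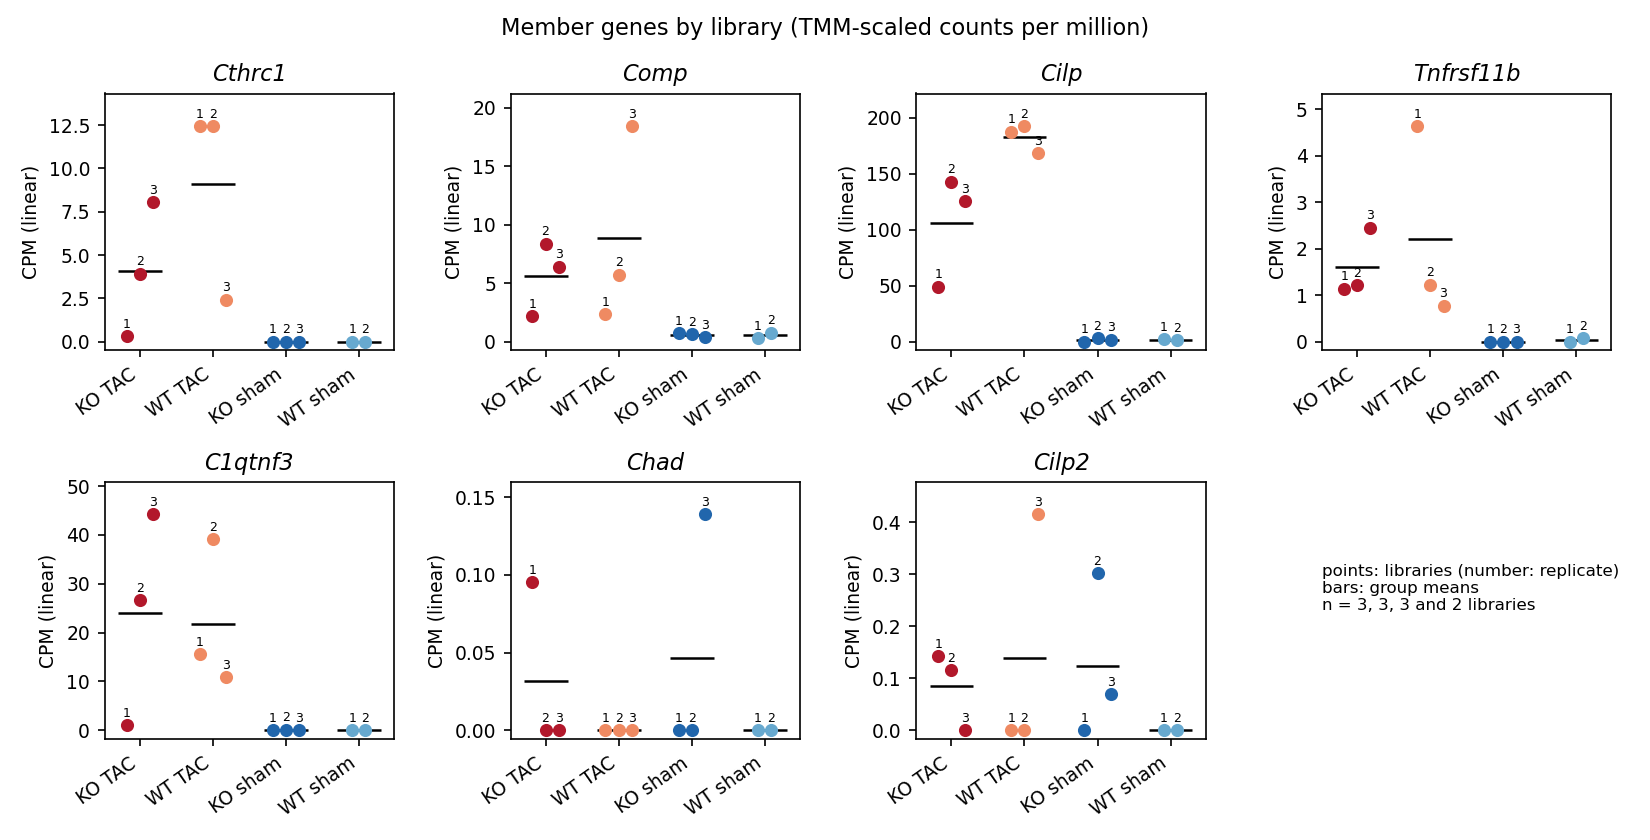
Level of each gene (CPM, linear axes that differ between panels) in each of the 11 libraries, grouped as KO TAC, WT TAC, KO sham and WT sham, with bars at group means. Cilp, C1qtnf3, Cthrc1, Comp and Tnfrsf11b were higher in every TAC library than in every sham library, while Chad and Cilp2 stayed at or near 0 throughout.

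The TAC and sham values are given as a description without a test, because low sham levels were used to choose the genes. In bulk tissue, more cells of a type and more RNA per cell cannot be told apart. Each of the 5 genes was higher in every TAC library than in every sham library of its genotype, which 13% of the 14619 genes tested also showed in KO and 19.1% in WT. By edgeR 4.7% of all genes differed between TAC and sham in KO and 6.92% in WT, in either direction. Chad and Cilp2 did not pass the filter on low counts. Cthrc1, Tnfrsf11b and C1qtnf3, at 0 to 2 counts in each sham library, passed it only through their TAC libraries. Cilp and Comp were chosen for low sham levels as well, so nothing is read from that share.

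Cilp, the matrix protein that dampens TGF-beta1, was counted 1035, 2473 and 2192 times in KO TAC 1 to 3 and 3148, 3300 and 3240 times in WT TAC 1 to 3. In sham hearts it had 3, 51 and 26 counts in KO and 40 and 21 in WT. The coefficient of variation was 47.0% in KO TAC, where KO TAC 1 was lowest, and 7.08% in WT TAC. Pooled over libraries and scaled, TAC exceeded sham 53.3-fold in KO (95% counting interval 42.8 to 67.4) and 85.7-fold in WT (66.7 to 112). KO sham 2 held most of the KO sham counts, and without it the KO ratio was 88.8. These intervals cover counting error only.

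Cthrc1, the marker of activated fibroblasts, had 7, 68 and 141 counts in KO TAC 1 to 3 and 209, 213 and 47 in WT TAC 1 to 3. All 5 sham libraries had 0 counts of it. Against a floor of 3 counts over the sham group, Cthrc1 was at least 53.9-fold higher in KO TAC and at least 84.4-fold higher in WT TAC, and leaving out single libraries moved these bounds between 27.3 and 83.6 in KO and between 37.4 and 119 in WT. Its 6 TAC values spanned 37.3-fold, with the lowest in KO TAC 1 and the highest in WT TAC 1.

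C1qtnf3, the adiponectin relative, had 21, 462 and 773 counts in KO TAC 1 to 3 and 262, 669 and 209 in WT TAC 1 to 3. Sham hearts had 0, 2 and 0 counts in KO and 0 and 1 in WT. The pooled ratio was 470 in KO (130 to 3887) and 615 in WT (110 to 24330), with the wide intervals set by 2 and 1 sham counts. Without KO sham 2 it was at least 189-fold in KO and without WT sham 2 at least 114-fold in WT, and the other left-out libraries moved it between 263 and 741 in KO and down to 272 in WT. C1qtnf3 had the widest spread among TAC libraries, 44.2-fold, and both ends of it lay in KO TAC.

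Comp, the pentameric collagen binder, had 46, 145 and 112 counts in KO TAC 1 to 3 and 40, 98 and 355 in WT TAC 1 to 3. It was the best detected in sham hearts after Cilp, at 8, 11 and 6 counts in KO and 5 and 10 in WT. The pooled TAC to sham ratio was 9.08 in KO (6.03 to 14.2) and 17.7 in WT (10.7 to 31.9), the lowest of the 5 genes in both genotypes. WT TAC 3 alone held the high Comp value, and without that library the WT ratio was 7.79. Without WT sham 1 it was 11.8, and without WT sham 2 it was 29.7. The same library had the highest counts of Tnmd, a tendon marker, and of Adipoq, an adipocyte marker. Tnmd had 2, 1 and 2 counts in KO TAC and 20, 0 and 43 in WT TAC 1 to 3, and Adipoq 1, 0 and 0 in KO TAC and 23, 8 and 133 in WT TAC. Scx, another tendon marker, went the other way. WT TAC 3 held 174 counts of Scx, above only KO TAC 1 (72) among the TAC libraries. Its counts were 341 and 390 for WT TAC 1 and 2, and 189 and 267 for KO TAC 2 and 3. Among other adipocyte markers, Plin1, Cidec, Lep and Retn were also highest in WT TAC 3, at 24, 56, 28 and 89 counts. Fabp4 was not, with 18856 counts there and 33245 in KO TAC 3. The part of these markers in the Comp value was not tested.

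Tnfrsf11b, the decoy receptor, had 24, 21 and 43 counts in KO TAC 1 to 3 and 78, 21 and 15 in WT TAC 1 to 3. Among sham libraries 1 count was seen, in WT sham 2. It was at least 22.0-fold higher in KO TAC, and the WT ratio was 61.5 with an interval of 10.8 to 2452. Without WT TAC 1, the library with the highest value, the WT ratio was 28.4, without WT sham 1 it was 27.2 and without WT sham 2 it was at least 11.4. The KO bound was 13.2 without KO sham 2 and 14.4 without KO sham 3. Tnfsf11, which encodes the ligand it captures, had 3, 1 and 0 counts in KO TAC and 3, 0 and 0 in WT TAC, with 1 count over all sham libraries. Tnfsf10, which encodes TRAIL, its other ligand, measured 25.6, 19.4 and 20.1 CPM in KO TAC 1 to 3, 6.97, 1.69 and 12.8 CPM in WT TAC 1 to 3, 14.5 to 34.3 CPM in KO sham and 12.3 to 22.7 CPM in WT sham. Every KO TAC library lay above every WT TAC library for Tnfsf10, with a log2 difference of 1.597 ± 0.55 that was not called (edgeR adjusted p = 0.747). KO TAC and WT TAC did not overlap, in either direction, for 7.74% of all genes tested.

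The 2 remaining cartilage genes showed no such gap. Chad had 2 counts in KO TAC 1, 0 in the other TAC libraries and 2 in KO sham 3. Cilp2 had 3, 2 and 0 counts in KO TAC and 0, 0 and 8 in WT TAC, and 0, 5 and 1 in KO sham with 0 in WT sham. The pooled TAC to sham ratio of Cilp2 was 0.624 in KO (0.151 to 2.45) and at least 1.44 in WT. It turned to 2.26 in KO without KO sham 2, and the WT bound fell under 1 without either WT sham library. A difference between groups was not detectable at this depth for either gene.

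The genotype comparison after TAC was not used to choose the genes. With edgeR's quasi-likelihood test 0 of the 5 tested genes differed between KO TAC and WT TAC at an adjusted p of 0.05, against 0% of all genes tested, and 0 of the 5 had an unadjusted p under 0.05, against 6.36% of all genes. DESeq2 and limma-voom also called 0 of the 5. The estimates lay below 0 for 4 genes and above 0 for C1qtnf3, with a median of -0.65 on the log2 scale beside 0.01 over all genes. Cilp averaged 105.9 ± 49.7 CPM in KO TAC and 182.9 ± 12.9 CPM in WT TAC (SD, n = 3 each), a log2 difference of -0.79 ± 0.51 (SE, adjusted p = 0.752). It was the one gene of the 5 for which every KO TAC library lay below every WT TAC library, which 3.34% of all genes also showed; groups without overlap in either direction were seen for 7.74%. An exact 2-sided permutation test gave p = 0.1 for it, the smallest that 20 arrangements of 6 libraries allow, or 0.7 after Benjamini-Hochberg adjustment over the 7 genes.

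Cthrc1 had the largest estimate, 4.11 ± 3.87 CPM in KO TAC and 9.11 ± 5.78 CPM in WT TAC, with a log2 difference of -1.15 ± 0.91 (adjusted p = 0.763) and an interval of 2 SE from -2.98 to 0.67. Without KO TAC 3 the estimate was -2.11, without KO TAC 1 it was -0.63, and in a fit adjusted for ribosomal protein share it was -0.51. Comp averaged 5.66 ± 3.16 CPM in KO TAC and 8.85 ± 8.47 CPM in WT TAC (log2 difference -0.65 ± 0.66, adjusted p = 0.796), and the sign turned without WT TAC 3 (0.47). Tnfrsf11b averaged 1.61 ± 0.740 CPM in KO TAC and 2.22 ± 2.12 CPM in WT TAC (-0.46 ± 0.78, adjusted p = 0.882), and turned without WT TAC 1 (0.67). C1qtnf3 averaged 24.0 ± 21.7 CPM in KO TAC and 21.9 ± 15.1 CPM in WT TAC (0.13 ± 0.85, adjusted p = 0.973). The intervals of 2 SE ran from -1.82 to 0.24 for Cilp, -1.97 to 0.67 for Comp, -2.02 to 1.10 for Tnfrsf11b and -1.57 to 1.84 for C1qtnf3. A level 2-fold lower in KO TAC thus remains within all 5 intervals. A level 2-fold higher remains within those of Tnfrsf11b and C1qtnf3 only.

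**Figure D2:**
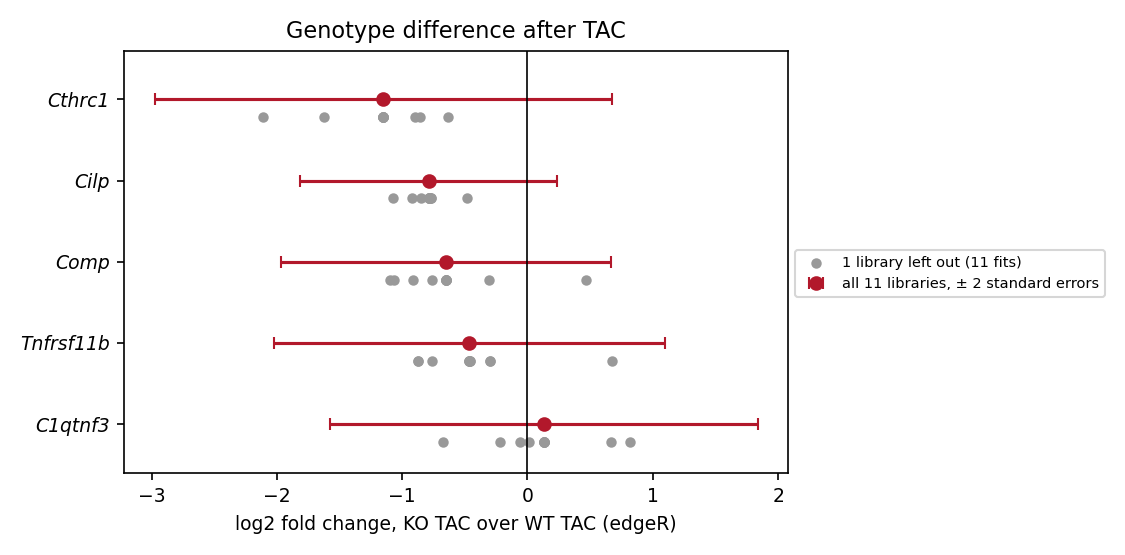
Fitted log2 difference KO TAC minus WT TAC for the 5 tested genes (points, bars of 2 SE), with grey points for the fits that each leave out 1 of the 11 libraries. All 5 intervals include 0, and Comp, Tnfrsf11b and C1qtnf3 change sign when a single library is left out.

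KO TAC 1 had the lowest level of the 6 TAC libraries for 4 of the 5 genes, Cthrc1, Comp, Cilp and C1qtnf3. It is also the library with the largest mitochondrial and smallest ribosomal protein share after TAC. In a fit adjusted for ribosomal protein share the log2 difference between KO TAC and WT TAC was -0.51 for Cthrc1, -0.70 for Cilp, -0.50 for Comp, 0.26 for Tnfrsf11b and 0.23 for C1qtnf3, and 0 of the 5 were called. The part of the mitochondrial share was not tested. The 7 genes summed to 54.2, 183 and 187 CPM in KO TAC 1 to 3 and to 223, 251 and 201 CPM in WT TAC 1 to 3, and Cilp made up 67.2% to 90.9% in KO TAC and 76.7% to 84.2% in WT TAC. In sham hearts the sum was 1.02 to 4.16 CPM in KO and 2.60 to 2.81 CPM in WT. Without both KO TAC 1 and WT TAC 3 the log2 difference was -0.53 for Cilp, 0.84 for Comp and -1.08 for Cthrc1 (unadjusted p = 0.0403, edgeR adjusted p = 0.357).

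After sham surgery Comp differed by 0.16 ± 0.95 and Cilp by -0.23 ± 0.65 on the log2 scale between KO and WT (edgeR adjusted p = 1 for both). Cthrc1, Tnfrsf11b, C1qtnf3 and Chad were at or under 3 counts in both groups and Cilp2 had 6 counts in KO sham and 0 in WT sham, so no fold is given. The difference of the TAC response between genotypes was -0.81 ± 1.16 for Comp and -0.56 ± 0.84 for Cilp (adjusted p = 0.992 for both). In both comparisons 0 of the 5 tested genes were called, against 0% of all genes.

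The genes were also set against Postn, periostin, the usual marker of activated cardiac fibroblasts, counted in the same library. Per 1000 Postn counts, Cilp had 71.4, 96.3 and 87.5 counts in KO TAC 1 to 3 and 65.1, 102.5 and 136.7 in WT TAC 1 to 3. On this scale the genotypes overlapped for Cilp, with means of 85.1 ± 12.6 in KO TAC and 101 ± 35.8 in WT TAC. Cthrc1 had 0.483, 2.65 and 5.63 per 1000 in KO TAC 1 to 3 and 4.33, 6.62 and 1.98 in WT TAC 1 to 3, and C1qtnf3 1.45, 17.99 and 30.9 in KO TAC and 5.42, 20.8 and 8.82 in WT TAC. Thus KO TAC 1 was low in Cthrc1 and C1qtnf3 also relative to Postn. Comp was highest relative to Postn in WT TAC 3 and lowest in WT TAC 1, at 3.17, 5.65 and 4.47 per 1000 in KO TAC and 0.828, 3.04 and 14.98 in WT TAC. In sham hearts, on 5 to 11 Comp counts a library, it was 29.96, 22.2 and 20.2 per 1000 in KO and 20.3 and 46.7 in WT, above every TAC library. Cilp in sham hearts, on 3 to 51 counts a library, was 11.2, 103.0 and 87.5 per 1000 in KO and 163 and 98.1 in WT, which apart from KO sham 1 and WT sham 1 lies within the range of the TAC libraries. Cthrc1 was at 0 in all sham libraries, and Tnfrsf11b and C1qtnf3 were at 0 or rested on 1 or 2 counts. The ratio of Comp to Cthrc1 per kilobase was 3.53, 1.14 and 0.427 in KO TAC 1 to 3. In WT TAC 1 to 3 it was 0.103, 0.247 and 4.06, so KO TAC 1 and WT TAC 3 had the highest values.

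**Figure D3:**
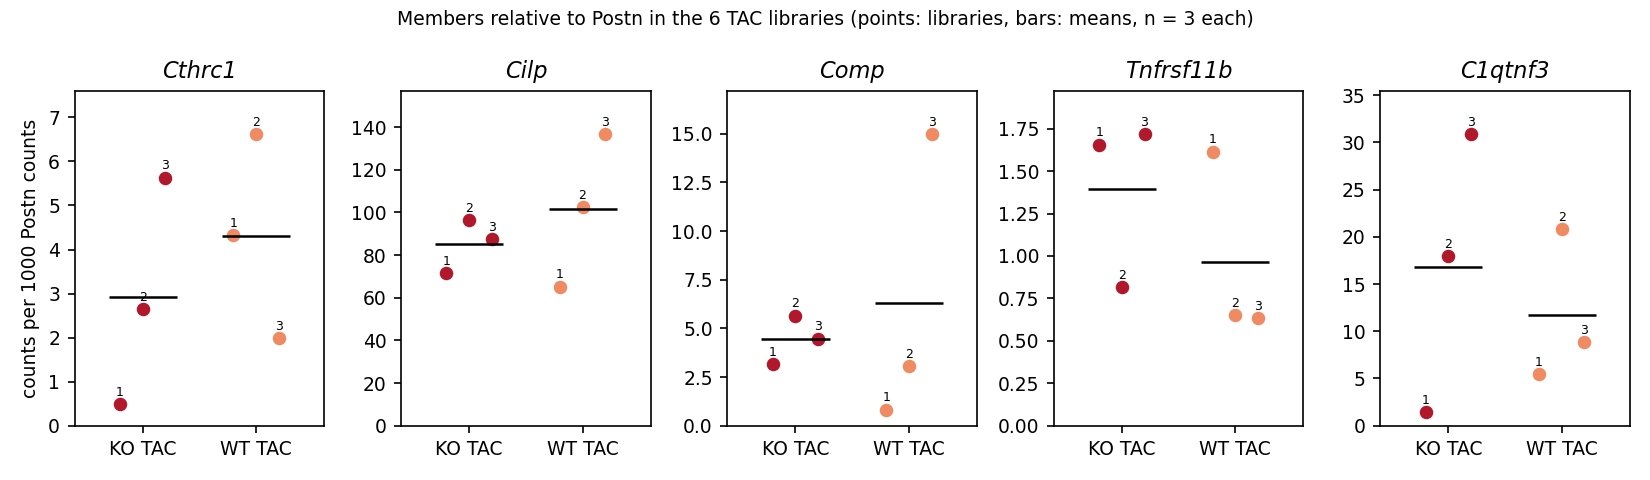
Counts of each gene per 1000 Postn counts in the 3 KO TAC and 3 WT TAC libraries (linear axes from 0, 1 point a library, bars at group means). The genotypes overlap for all 5 genes shown.

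Genes outside the set with profiles over the 11 libraries closest to the mean profile of the 5 tested genes were found by root mean square difference of centred log2 CPM among 11758 genes. Among the closest were Col9a2, a chain of cartilage collagen IX (0.563), Lox, the collagen cross-linking lysyl oxidase (0.564), Star, a steroidogenic cholesterol transport protein (0.632), P4ha3, a prolyl hydroxylase of collagen (0.647), and Col8a2, a short-chain collagen (0.671). The median over all genes compared was 2.61, and the 5 genes themselves lay between 0.649 (Cthrc1) and 1.26 (Comp) of their own mean. Col9a2 averaged 3.85 CPM in KO TAC, 4.64 in WT TAC, 0.0402 in KO sham and 0.102 in WT sham. The measure describes likeness of levels over these libraries only.

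Other activated fibroblast genes were counted from a list of 26 made with earlier results of these data known, so their direction is not independent evidence. In KO 19 of the 26 rose after TAC and in WT 23 rose, with 0 lower in either, against 3.32% of all genes called higher in KO and 3.88% in WT. Postn averaged 1202 ± 444 CPM in KO TAC, 1997 ± 830 in WT TAC, 25.1 ± 4.63 in KO sham and 16.1 ± 1.04 in WT sham. Col3a1, the fibrillar collagen of early scars, rose by 3.31 ± 0.41 (log2, SE) in KO and 4.82 ± 0.53 in WT. Aspn, the leucine-rich repeat protein asporin, rose by 3.57 ± 0.75 in KO and 4.52 ± 0.94 in WT. Ccn2, connective tissue growth factor, rose by 4.49 ± 0.84 in WT and had an estimate of 2.17 ± 0.64 in KO (edgeR adjusted p = 0.0733). The WT count of 23 was 9 without WT sham 1 and 10 without WT sham 2, which each leave 1 WT sham library.

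Few genes typical of chondrocytes were abundant in any library. Of 27 cartilage genes, Matn1, Snorc, Clec3a and Mia were at 0 in all libraries, 10 others had at most 10 counts in every library, Col2a1 and Col10a1 among them, and 10 passed the filter. Acan, aggrecan, had 22, 6 and 0 counts in KO TAC 1 to 3 and 2, 5 and 8 in WT TAC. Of the 10 tested, 2 rose in both genotypes: Col9a2 (6.14 ± 0.85 in KO, 5.38 ± 0.92 in WT) and Col11a1, a minor fibrillar collagen of cartilage (6.13 ± 1.23 in KO, 7.43 ± 1.49 in WT). Of all genes tested, 3.32% were called higher in KO and 3.88% in WT. Col9a2 and Col11a1 passed the filter only through their TAC libraries, and the list was made with earlier results of these data known. Nothing is therefore read from 2 of 10 beside that share. Col11a1 had 15, 280 and 248 counts in KO TAC 1 to 3 and 652, 484 and 204 in WT TAC 1 to 3, lowest in KO TAC 1 like 4 of the secreted genes, and 0 to 5 counts in sham libraries. In KO 1 cartilage gene was called without KO sham 1 or without KO sham 3, and in WT 0 were called without WT sham 1 or without WT sham 2. Sox6, Cytl1 and Prg4 gave estimates of -0.62 ± 0.28, -0.53 ± 0.64 and 0.85 ± 0.57 in KO and -0.40 ± 0.32, -0.46 ± 0.71 and 1.37 ± 0.65 in WT, and were not called. Sox9, the chondrocyte transcription factor, had 112, 83 and 92 counts in KO TAC, 49, 59 and 74 in WT TAC, 4, 16 and 29 in KO sham and 5 and 18 in WT sham. Its TAC libraries all lay above its sham libraries, with log2 estimates of 2.17 ± 0.58 in KO and 2.00 ± 0.69 in WT that were not called (edgeR adjusted p = 0.0540 in KO and 0.0978 in WT). Runx2, a regulator of bone and of maturing cartilage, likewise had 23 to 35 counts in TAC and 3 to 18 in sham libraries and was not called. Among all genes tested, 13% in KO and 19.1% in WT had every TAC library above every sham library of the genotype.

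**Figure D4:**
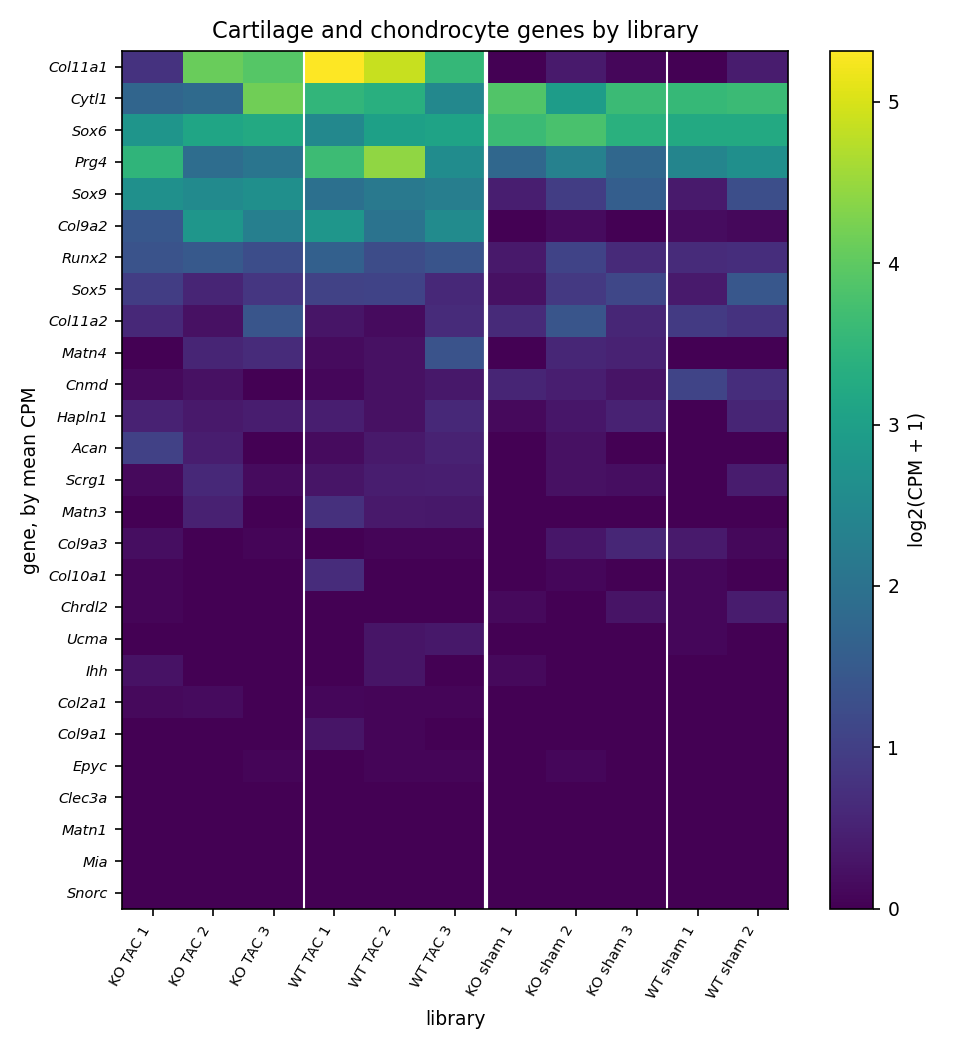
Heat map of log2(CPM + 1) of the cartilage and chondrocyte genes (rows) in each library (columns), with KO TAC, WT TAC, KO sham and WT sham from left to right. Col9a2 and Col11a1 are high in TAC libraries and near 0 in sham libraries, and most of the other genes stay near 0 in all 4 groups.

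Relatives by protein family were counted next, from lists made with earlier results of these data known. Of all genes tested, 3.32% were called higher in KO and 3.88% in WT. Of the 4 thrombospondins related to Comp, 3 rose in KO and 4 in WT. Thbs1 rose by 2.49 ± 0.41 in KO and 3.73 ± 0.52 in WT, and Thbs3 by 1.71 ± 0.43 in KO and 1.92 ± 0.50 in WT. Thbs4 (also among the 26 fibroblast genes) rose by 3.39 ± 0.49 in KO and 3.605 ± 0.58 in WT. Thbs2 rose in WT (1.52 ± 0.36) and gave 0.76 ± 0.31 in KO. With any single KO TAC or KO sham library left out, the KO count of thrombospondins was 2. The WT count of thrombospondins was 2 without WT TAC 2 and 1 without WT sham 1 or WT sham 2. Of 9 small leucine-rich relatives of Chad, 2 rose in KO and 3 in WT. Bgn, biglycan, rose by 2.26 ± 0.38 in KO and 2.65 ± 0.46 in WT, while Dcn, decorin, gave 0.08 ± 0.32 in KO and 0.63 ± 0.36 in WT. Lum, lumican, rose in WT (2.38 ± 0.42) and gave 1.29 ± 0.34 in KO, and Ogn, osteoglycin, gave -0.01 ± 0.42 in KO and 0.83 ± 0.48 in WT. The count of these relatives was 4 in KO without KO TAC 1, 1 in KO without KO TAC 2, KO TAC 3, KO sham 1 or KO sham 3, and 0 in WT without WT sham 1 or WT sham 2. Of 8 C1q and TNF related genes, C1qtnf6 alone rose, by 2.72 ± 0.35 in KO and 3.52 ± 0.43 in WT, and C1qtnf9 gave -0.54 ± 0.39 in KO and -1.03 ± 0.43 in WT. C1qtnf2 gave 0.64 ± 0.55 in KO and 1.39 ± 0.65 in WT, and C1qtnf7 -0.15 ± 0.36 in KO and 1.08 ± 0.41 in WT. Without WT TAC 3 the WT count was 2 higher and 1 lower. In the RANK ligand axis of Tnfrsf11b, 0 of 4 tested genes were called in either genotype by edgeR. Tnfsf10 gave -0.12 ± 0.54 in KO and -1.29 ± 0.60 in WT, Traf6 -0.28 ± 0.29 in KO and -0.11 ± 0.33 in WT, Nfatc1 0.15 ± 0.40 in KO and -0.10 ± 0.44 in WT, and the receptor Tnfrsf11a 0.71 ± 0.71 in KO and 1.04 ± 0.83 in WT. Among 11 growth factors and receptors that these proteins bind or oppose, 4 rose in each genotype. Igf1 was one, at 34.9 ± 4.25 CPM in KO TAC, 39.8 ± 4.26 in WT TAC, 9.78 ± 0.755 in KO sham and 8.33 ± 1.25 in WT sham, and Tgfb3 another, at 1.61 ± 0.33 in KO and 2.07 ± 0.39 in WT on the log2 scale. The receptor Tgfbr1 rose by 1.07 ± 0.25 in KO and 1.58 ± 0.30 in WT, while Tgfbr2 gave 0.75 ± 0.32 in KO and 0.36 ± 0.36 in WT. This count of 4 was 1 in KO without KO TAC 2 or any KO sham library and 2 without WT sham 1, and in WT it was 0 without WT sham 1 and 1 without WT sham 2.

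Markers of the cell types that could carry these genes were summed per library. Of all genes tested, 3.32% were called higher in KO and 3.88% in WT, and 1.37% lower in KO and 3.04% in WT. Resting fibroblast markers summed to 739 to 925 CPM in KO TAC, 928 to 1009 in WT TAC, 1043 to 1402 in KO sham and 831 to 880 in WT sham, and of the 15 genes 1 rose and 2 fell in KO (Gsn and Clec3b lower) and 2 rose and 1 fell in WT (Scara5 lower). Of 10 cardiomyocyte markers 0 rose in either genotype, 1 fell in KO and 2 in WT. With library totals in place of TMM 0 resting fibroblast and 0 cardiomyocyte markers fell in either genotype. Macrophage markers had 2 of 9 higher in each genotype (7 in KO and 9 in WT with library totals), endothelial markers 0 of 9 called, and pericyte and smooth muscle markers 1 of 10 higher in each with 1 lower in WT. In small lists, 1 of 2 tested bone genes (Spp1) rose in each genotype, with the defining bone gene Bglap at 0 in all libraries, and 1 of 2 tendon genes (Scx) rose in WT, with Kera at 0. Of 3 skeletal muscle genes 1 rose in KO and 2 in WT, of 4 epicardial genes 1 in each, and of 3 adipocyte and 3 lymphocyte genes 0 in each. Skeletal muscle markers summed to 2.24 to 21.1 CPM in KO TAC and 11.8 to 106 CPM in WT TAC, above 0.945 to 4.91 CPM in sham libraries in all but 1 TAC library. Calls in these marker lists rested on few libraries. Without WT sham 1, 0 genes of the resting fibroblast, pericyte, macrophage, tendon, bone, skeletal muscle and epicardial lists were higher in WT, and without any 1 of the KO sham libraries 0 genes of the pericyte, bone, skeletal muscle and epicardial lists were higher in KO. The macrophage count ran from 0 to 9 in WT and from 1 to 8 in KO over the alternatives, and the counts of resting fibroblast markers that fell from 0 to 5 in each genotype. The part of other cell types in the levels of the 7 genes was not tested. In KO TAC against WT TAC, and in KO sham against WT sham, 0 genes of these lists were called by edgeR. The alternatives called up to 3 genes of a list between genotypes after TAC, and the 3 were adipocyte markers, lower in KO TAC with no low-count filter.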

How the data were processed

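Counts per Ensembl gene were deposited by the authors as 1 table of whole numbers for 11 libraries, with no normalization. Per the submitters' processing notes, STAR 2.5.1, featureCounts, DESeq2 and the build GRCm38 were used; which annotation and strand setting were used, and how multiply aligned reads were handled, is not given in the sources used here. Per the labels' protocols, total RNA was taken from flash-frozen cardiac tissue with Trizol. Groups were taken from the genotype and treatment labels. The titles of the sham libraries also begin with TAC, so for these the title and the treatment label differ, and the treatment label was used. The title letter was M in 8 libraries and F in 3, with M in both WT sham libraries. Of 46517 identifiers, 46005 matched a symbol in GENCODE M21, 512 did not, and 22282 had no count.

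The analysis used R 4.3.3 with edgeR 4.0.16: filterByExpr (14619 genes tested), TMM scaling, 1 mean per group over all 11 libraries, glmQLFit and glmQLFTest, 2-sided, with Benjamini-Hochberg adjustment over all genes tested and a threshold of 0.05. Approximate standard errors were derived by dividing each log2 fold change by the square root of its F statistic. CPM per kb divides TMM-scaled CPM by the union exon length. Ratios of TAC to sham pool the scaled counts of a group; where a sham group had 0 counts the floor is 3 counts over the group, and 95% exact intervals cover counting error only. The code was tested on simulated counts. DESeq2 1.42.0, limma-voom (limma 3.58.1), library totals, no filter, the title letter, the ribosomal protein share, each library left out and a pair left out were alternatives. The text names the 7 genes, the best expressed genes of the lists by a rule of 4 per list (marker lists of other cell types are given by counts and summed levels, not gene by gene), the genes called in KO against WT and, of the 6 closest profiles at a mean of at least 1 CPM, 5 (the other is not reported here); others named were chosen after their values were seen. The 7 genes and all lists were chosen with earlier results of these data known. No column was left out (0 not used).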

Additional observations from a re-analysis of the deposited data

How the results depend on the processing

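Over 19 other settings the counts of the 7 genes called between genotypes, after TAC, after sham and in the difference of responses, stayed 0, and 5 genes stayed past 2-fold after TAC in KO and 5 in WT (6 with no low-count filter). The smallest adjusted p over the genotype values was 0.287. Cilp kept its sign in KO against WT after TAC (-1.08 to -0.48), as did Cthrc1 (-2.11 with KO TAC 3 left out to -0.51 with the ribosomal protein share as covariate). Of the values between genotypes, 15 of 171 changed sign, and the cause was not tested. After TAC, Comp ran from -1.10 (WT TAC 1 left out) to 0.47 (WT TAC 3 left out) and was 0.84 with KO TAC 1 and WT TAC 3 both left out. Tnfrsf11b ran from -0.88 (KO TAC 3 left out) to 0.67 (WT TAC 1 left out) and was 0.26 with the ribosomal protein share as covariate. C1qtnf3 ran from -0.67 (KO TAC 3 left out) to 0.82 (WT TAC 2 left out), was -0.06 and -0.22 with WT TAC 1 and WT TAC 3 left out in turn, -0.89 with limma-voom and -0.14 with the title letter as covariate. After sham, Comp ran from -0.38 (WT sham 1 left out) to 0.92 (WT sham 2 left out) and Cilp from -0.94 (KO sham 2 left out) to 0.23 (KO sham 1 left out), with 0.11 when WT sham 1 was left out. In the difference of responses, Comp ran from -1.57 (WT sham 2 left out) to 0.31 (WT TAC 3 left out). It was 0.68 with KO TAC 1 and WT TAC 3 both left out. Cilp ran from -1.02 (KO sham 1 left out) to 0.15 (KO sham 2 left out). The log2 TAC to sham value of Cilp in KO was 6.60 without KO sham 2 (5.89 in all libraries), and that of Comp in WT 2.89 without WT TAC 3 (4.02 in all). Settings for the 2 longest lists were added after seeing the data. Leaving out single libraries gave 15 to 21 activated fibroblast genes higher in KO and 9 to 25 in WT, and 1 to 3 cartilage genes in KO and 0 to 2 in WT. With no low-count filter 5 cartilage genes were higher in WT, and with limma-voom 1. Library totals in place of TMM moved the median of all genes by 0.49 in KO and 0.37 in WT (TAC against sham) and by 0.14 in KO against WT after TAC. They called 1325 genes higher and 60 lower in KO, where TMM called 486 and 201, and 1044 higher and 133 lower in WT, where TMM called 567 and 444. Genes called in TAC against sham numbered 226 to 2318 over all settings in KO (687 with the settings of the report) and 30 to 4374 in WT (1011). In KO against WT after TAC 206 genes were called with no filter, 6 with DESeq2 and 14 with KO TAC 1 and WT TAC 3 left out, and in the other settings 0. No paired analysis was possible because the labels give the groups no shared replicate numbers. Groups of 2 or 3 libraries and sham counts of 0 to 2 limit every ratio of Cthrc1, Tnfrsf11b and C1qtnf3.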
